A study of Mus musculus with 9 samples.

Results

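The 9 genes described here are transcription factors and splicing factors that mark epithelial cells: Foxa1, Elf3, Ehf, Spdef, Grhl2, Ovol1, Klf5, Esrp1 and Esrp2. They were taken by name from the 22180 genes that a probe set of the array names alone, and each had exactly 1 such probe set, so the rule of taking the brightest probe set over 9 arrays decided nothing for them. All 9 passed the filter on low signal, which kept 16635 genes. The list was selected on log2 intensities of these same arrays, in that earlier results from them were known when it was drawn up, among them the low levels of Elf3, Ehf and Foxa1 in tumours. The comparisons of tumours with HG-PIN of the same mice and of other mice share those tumour arrays. Both therefore describe these genes and are not independent support for their direction.

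The samples were prostate epithelium from male mice of mixed strain, 12 months old, captured by laser from fixed and embedded sections, with 1 array per capture. All mice carried PbCre, a Cre recombinase driven by the probasin promoter of prostate epithelium, together with a further engineered allele that is not reported here and that all 3 groups share. Mice without the T-3Mb-Erg allele are called control here, and their lesions are not normal tissue. The other genotype added 1 copy of the T-3Mb-Erg allele, made to study loss of the genes that lie between Tmprss2 and Erg. There were 3 groups of 3 arrays: high-grade prostatic intraepithelial neoplasia (HG-PIN, dysplastic cells that remain within the gland) of control mice, HG-PIN of T-3Mb-Erg mice, and solid tumours of T-3Mb-Erg mice, read by the study as poorly differentiated adenocarcinoma. In T-3Mb-Erg animals each of 3 mice gave both a tumour and an HG-PIN array under 1 replicate number, so the arrays represent 6 mice. Normal prostate, and tumours of control mice, were not among the samples.

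Epithelial cells hold their sheet-like form through a small set of regulators. Foxa1 opens chromatin for the androgen receptor in luminal prostate cells, Elf3, Ehf and Spdef are ETS-family factors restricted to epithelia, and Grhl2 and Ovol1 maintain junction genes and hold back the genes of mesenchymal transition. Klf5 is a zinc finger factor of basal and proliferating epithelia, and Esrp1 and Esrp2 are RNA-binding proteins that select the epithelial exons of transcripts such as Fgfr2 and Cd44. Zeb1, Snai2 and related repressors act on the other side, in part by binding E-boxes in promoters of epithelial genes.

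RefSeq promoter windows of build GRCm38.p6 were given for 3 of the 9 genes, Elf3, Foxa1 and Spdef. Elf3 and Foxa1 differed between tumour and HG-PIN while Spdef overlapped, so the 250 bases upstream of the annotated start were searched on both strands for the E-box CACCTG, bound by Zeb and Snail repressors, and for GGAA, the core of ETS sites. The 2 patterns share no bases. The Elf3 window (chr1:135258473-135258722, minus strand, printed 5′ to 3′ along the gene) is shown because it holds both patterns, which stand in capitals (TTCC is GGAA on the other strand).
Elf3: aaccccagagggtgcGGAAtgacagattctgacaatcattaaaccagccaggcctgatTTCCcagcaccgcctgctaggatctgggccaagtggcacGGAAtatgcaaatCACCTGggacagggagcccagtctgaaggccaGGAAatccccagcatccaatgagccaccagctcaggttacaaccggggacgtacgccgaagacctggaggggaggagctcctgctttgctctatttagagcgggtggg
The stretch around the E-box of Foxa1 (chr12:57546119-57546144, minus strand, E-box in capitals) is shown beside it for comparison.
Foxa1: ggccgcctcaCAGGTGcacctcgggc
Elf3 and Foxa1 each had 1 E-box of this form, Elf3 from base -140 to -135 and Foxa1 from base -23 to -18 before the start, and Spdef had 0. The E-box was present in 17.2% of 32841 such windows in RefSeq. GGAA occurred 4 times in each of the 3 windows and in 93.5% of all windows. The Foxa1 and Spdef windows lie at starts inside the annotated span of the gene, since both genes have a transcript that begins further upstream. A match describes the letters only, and binding was not measured.

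Values are log2 of the deposited intensity. The 95th percentile of log2 intensity over all probe sets, a measure of how wide the signal spreads on an array, lay between 6.15 and 6.65, and was lowest on control HG-PIN replicate 2 (6.16), tumour replicate 2 (6.15) and, among T-3Mb-Erg HG-PIN, replicate 3 (6.26). Signal without a transcript was gauged from 1373 olfactory and vomeronasal receptor genes, whose mean log2 intensities have a 95th percentile of 4.80. In tumours the means of 7 of the 9 factors were below that level, against 2 of 9 (Esrp2 and Ovol1) in each HG-PIN group. The sizes of the differences in tumours are therefore limited by background. By their means over all 9 arrays, 27.9% of the 16635 genes tested were above 4.80, so most lay below it. A mean below it is thus not particular to these factors.

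Foxa1, Elf3 and Ehf fell in T-3Mb-Erg tumours relative to the HG-PIN lesions of those mice. Their falls were 6.68-fold, 7.54-fold and 6.15-fold, each in 3 of 3 mice (n = 3 arrays per group). These calls come from a fit with the mouse as a random block, which was close to a fit without a block. With a fixed block for mouse none of the 3 passed (limma adjusted p = 0.0505 for Elf3 and 0.0753 for Ehf and Foxa1). Grhl2 and Esrp1 were lower in 3 of 3 mice as well, by 1.56 and 2.15 log2 units, and missed the threshold. Esrp2, Ovol1, Klf5 and Spdef overlapped between tumour and HG-PIN. In captured tissue, fewer cells of a type and less RNA per cell cannot be told apart. Adjusted p values come from limma with Benjamini-Hochberg adjustment over 16635 genes, and genes under 0.05 are called.

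**Figure D1:**
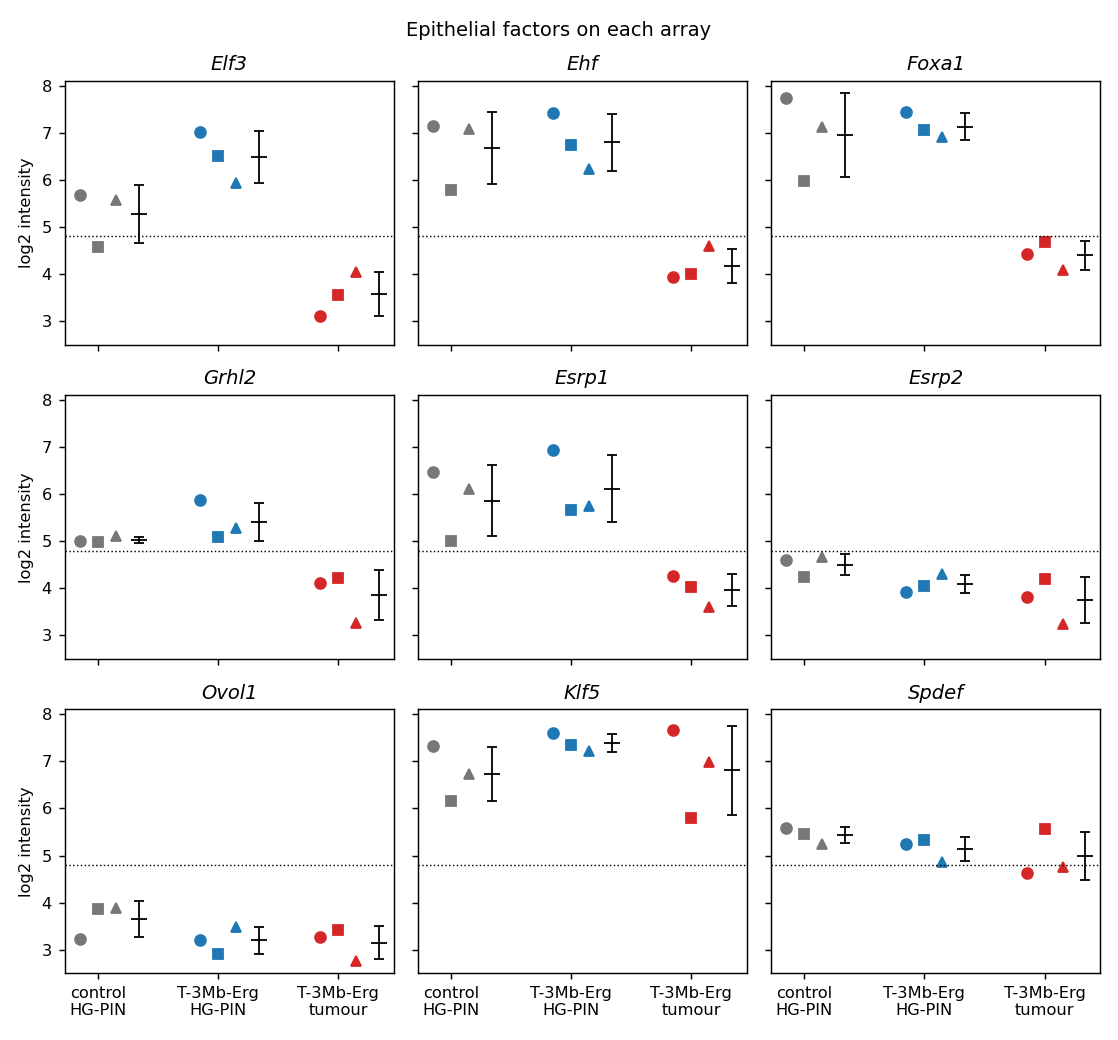
Log2 intensity (vertical axis) of each of the 9 factors on the 9 arrays, by group, with replicate 1 as a circle, 2 as a square and 3 as a triangle, the black bar and whiskers giving the mean ± SD (n = 3), and the dotted line the receptor level of 4.80. Tumour arrays lie below all HG-PIN arrays for Foxa1, Elf3, Ehf, Grhl2 and Esrp1, and overlap T-3Mb-Erg HG-PIN for the other 4.

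Foxa1, the forkhead pioneer factor, had log2 intensities of 7.45, 7.05 and 6.91 in HG-PIN of T-3Mb-Erg mice and of 4.42, 4.69 and 4.09 in the tumours of the same mice, in replicate order. Control HG-PIN gave 7.74, 5.99 and 7.13. Every tumour array was lower than every HG-PIN array, and the gap between the highest tumour and the lowest T-3Mb-Erg HG-PIN was 2.22. The means were 6.95 ± 0.89 in control HG-PIN, 7.14 ± 0.28 in that of T-3Mb-Erg mice and 4.40 ± 0.30 in tumours (SD, n = 3 each). The fall against T-3Mb-Erg HG-PIN was -2.74 (SE 0.43, limma adjusted p = 0.0306), and the 3 mice gave -3.02, -2.37 and -2.82.

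Elf3, an ETS factor of glandular epithelia, stood at 7.02, 6.51 and 5.93 in T-3Mb-Erg HG-PIN, at 3.12, 3.55 and 4.05 in tumours, and at 5.69, 4.57 and 5.58 in control HG-PIN. The 3 groups did not overlap: tumours were lowest, control HG-PIN stood between, and T-3Mb-Erg HG-PIN was highest. The fall from T-3Mb-Erg HG-PIN to tumour was -2.91 (SE 0.39, limma adjusted p = 0.0154). The mice gave -3.90, -2.96 and -1.88. The mean was 5.28 ± 0.62 in control HG-PIN, 6.49 ± 0.54 in that of T-3Mb-Erg mice and 3.57 ± 0.46 in tumours (SD, n = 3 each).

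Ehf, of the same ETS subfamily as Elf3, stood at 7.42, 6.75 and 6.22 in HG-PIN of T-3Mb-Erg mice and at 3.95, 3.997 and 4.60 in tumours. Control HG-PIN gave 7.15, 5.79 and 7.09, which overlapped the HG-PIN of the other genotype. Ehf fell by 2.62 log2 units in tumours (SE 0.44, limma adjusted p = 0.0366), with mice at -3.48, -2.76 and -1.63. The order of the mice was the same for Elf3 and Ehf. The difference was widest in the mouse of replicate 1 and narrowest in that of replicate 3. For both genes that last mouse had the lowest HG-PIN and the highest tumour of the 3. Foxa1 (-3.02, -2.37 and -2.82), Grhl2 (-1.76, -0.87 and -2.03) and Esrp1 (-2.67, -1.63 and -2.15) did not share this order. All tumour values of Elf3 and Ehf were below the receptor level of 4.80, so nothing is read from the order.

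Spdef, the ETS factor of secretory and goblet cells, overlapped between the lesions. Its values were 5.25, 5.33 and 4.86 in HG-PIN of T-3Mb-Erg mice, 4.64, 5.57 and 4.75 in tumours and 5.59, 5.45 and 5.25 in control HG-PIN. Tumour replicate 2 exceeded every T-3Mb-Erg HG-PIN array. The difference between tumour and T-3Mb-Erg HG-PIN was -0.16, with a 95% interval from -0.82 to 0.49 (limma adjusted p = 0.994). The intervals of Elf3 and Ehf were -3.76 to -2.07 and -3.58 to -1.66. Low tumour values of those 2 genes were known when the list was drawn up. Spdef also lay nearer the receptor level of 4.80, with a T-3Mb-Erg HG-PIN mean of 5.15 against 6.49 for Elf3 and 6.80 for Ehf. No contrast of Spdef with them is therefore read from the intervals.

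Grhl2, the Grainyhead-like factor that sustains junction genes, stood at 5.87, 5.10 and 5.29 in T-3Mb-Erg HG-PIN, at 4.11, 4.23 and 3.26 in tumours and at 5.01, 4.99 and 5.10 in control HG-PIN. The control arrays had an SD of 0.06, the smallest of any factor in any group, and no tumour array reached them. The difference from T-3Mb-Erg HG-PIN was -1.56 (95% interval -2.22 to -0.89, limma adjusted p = 0.0590) and did not pass. Ovol1, a zinc finger repressor of mesenchymal genes, lay between 2.75 and 3.89 on all 9 arrays, below the receptor level on each. Its difference of -0.05 had an interval from -0.64 to 0.54, so a change of Ovol1 was not detectable at this signal.

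Esrp1, the splicing regulator, stood at 6.94, 5.66 and 5.75 in T-3Mb-Erg HG-PIN, at 4.27, 4.04 and 3.60 in tumours and at 6.47, 5.01 and 6.11 in control HG-PIN. Tumour and HG-PIN arrays did not overlap. The difference from T-3Mb-Erg HG-PIN was -2.15 (95% interval -3.11 to -1.19, limma adjusted p = 0.0773) and did not pass. Its paralog Esrp2 gave 3.92, 4.06 and 4.31 in HG-PIN of T-3Mb-Erg mice and 3.82, 4.20 and 3.24 in tumours, overlapping and below the receptor level. Its difference was -0.34 (95% interval -0.91 to 0.22). A further probe set, listed for Esrp2 together with 1810019D21Rik and therefore outside the rule, had means of 3.66 in both tumours and T-3Mb-Erg HG-PIN (3.66 ± 0.07 and 3.66 ± 0.23, SD, n = 3 each) and of 4.29 ± 0.14 in control HG-PIN.

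Klf5 stayed well above the receptor level in every group. It stood at 7.60, 7.34 and 7.22 in T-3Mb-Erg HG-PIN, at 7.66, 5.79 and 6.98 in tumours and at 7.32, 6.16 and 6.73 in control HG-PIN. The tumours spread from the lowest to the highest of the 9 values. The difference from T-3Mb-Erg HG-PIN was -0.58, with an interval from -1.67 to 0.51 (limma adjusted p = 0.935), and the mice gave 0.06, -1.55 and -0.24. The lowest Klf5 values of tumours and of control HG-PIN were on their replicates 2, the arrays of narrowest signal in those groups, and the part of signal spread in this was not tested. The interval reaches from 3.17-fold lower to 1.42-fold higher, so the values do not show that Klf5 was equal between the lesions.

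**Figure D2:**
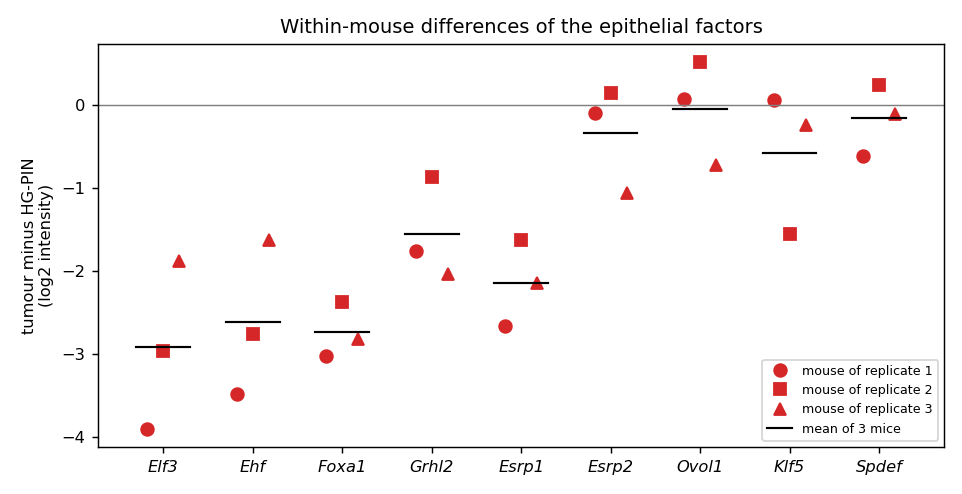
Tumour minus HG-PIN in log2 intensity (vertical axis) for each factor in the 3 T-3Mb-Erg mice, with the mean as a bar. Elf3, Ehf, Foxa1, Grhl2 and Esrp1 are below 0 in each mouse, from -0.87 to -3.90, and the other 4 lie on both sides of 0.

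Counted over the 9 factors, limma called 3 lower and 0 higher in tumours than in T-3Mb-Erg HG-PIN. Over all genes tested 0.216% were called lower and 0.0661% higher (36 and 11 genes). Without tumour replicate 2 this split turned to 25 lower and 85 higher, and with array weights to 179 lower and 226 higher. The median change of the 9 was -1.56 against -0.01 over all genes. An unadjusted p under 0.05 with a lower value in tumours was found for 5 of the 9, against 3.98% of all genes. Groups did not overlap, with tumours lower, for 5 of the 9, against 6.43% of all genes, and with tumours higher for 0 of the 9, against 4.97%. Of the factors, 5 of 9 were lower in 3 of 3 mice, against 13.1% of all genes. Because the list was drawn with this comparison known, nothing is read from these shares. The fixed replicate block for mouse left 0 of the 9 called, with the same log2 changes and 15 genes called over the whole array in place of 47. Leaving out tumour replicate 1, or replicate 1 or 2 of T-3Mb-Erg HG-PIN, also ended all 3 calls, while the changes of these genes stayed between -2.90 and -2.33. Without control HG-PIN replicate 3 Elf3 alone was called, and without tumour replicate 2 Ehf was not called. Over 22 alternatives the adjusted p ranged from 0.000979 to 0.145 for Elf3, 0.00152 to 0.249 for Ehf and 0.00283 to 0.240 for Foxa1.

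The tumours were then set against HG-PIN of control mice, which are other animals. Genotype and lesion both differ in this comparison, and it uses the same tumour arrays. Foxa1 fell here too, with a change of -2.56 log2 units, or 5.88-fold (SE 0.43, limma adjusted p = 0.0476). Ehf was lower by a similar amount and just missed the threshold (-2.50, SE 0.44, adjusted p = 0.0539). The differences of Esrp1, Elf3 and Grhl2 were -1.89, -1.71 and -1.17, with adjusted p = 0.118, 0.110 and 0.160, and did not pass. Esrp2 stood at -0.75 (95% interval -1.31 to -0.20, adjusted p = 0.322), and its lowest control array exceeded the highest tumour array by 0.05. Ovol1 (-0.51), Spdef (-0.45) and Klf5 (0.07) overlapped.

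Of the 9 factors, 1 was called lower and 0 higher, where 0.0721% of all genes were called lower and 0.108% higher (12 and 18 genes). Without control HG-PIN replicate 2 the split was 70 lower and 18 higher, without tumour replicate 2 it was 45 lower and 216 higher, and with a pseudocount of 16 it was 0 lower and 8 higher. An unadjusted p under 0.05 with tumours lower was found for 6 of 9, against 4.59% of all genes. Arrays did not overlap, tumours lower, for 6 of 9, against 7.51% of all genes, and tumours higher for 0 of 9, against 6.2%. The median change was -1.17 against -0.03 over all genes. The list was drawn with low values on these same tumour arrays known, so nothing is read from these shares either. The Foxa1 call ended when any 1 of 7 arrays was left out (control HG-PIN replicates 1 and 3, tumour replicates 1 and 3, and each T-3Mb-Erg HG-PIN array), with adjusted p from 0.0590 to 0.215, and held in 11 of 21 alternatives. Without control HG-PIN replicate 2, whose 5.99 was the lowest Foxa1 value among HG-PIN arrays, 4 factors were called.

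**Figure D3:**
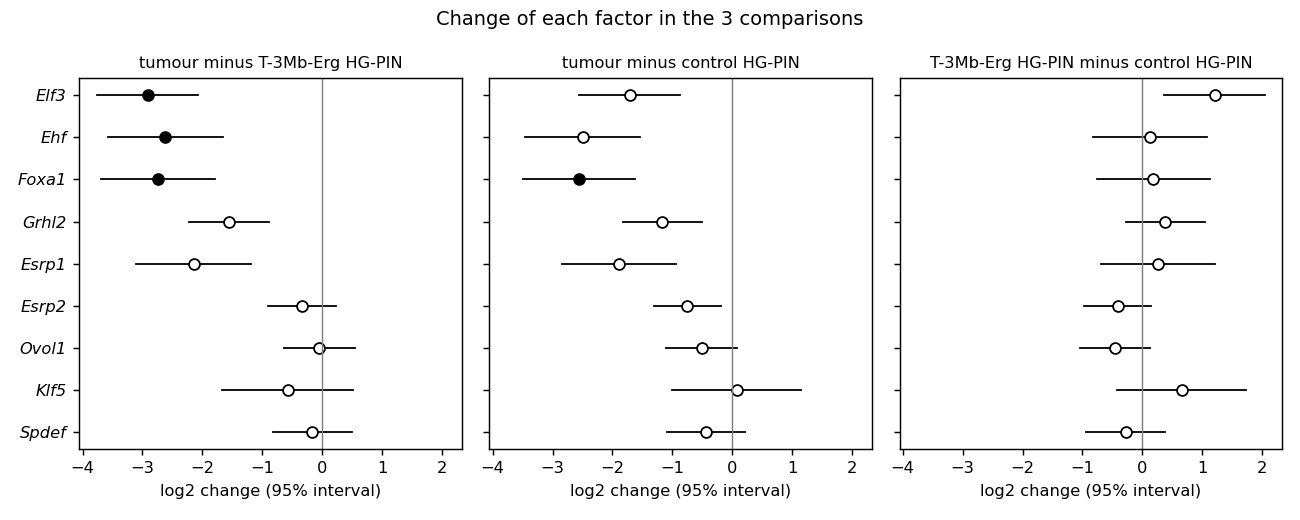
Log2 change of each factor (horizontal axis) with its 95% interval in the 3 comparisons, filled where limma's adjusted p is under 0.05. Filled points are Elf3, Ehf and Foxa1 in tumours against T-3Mb-Erg HG-PIN and Foxa1 in tumours against control HG-PIN.

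Between the HG-PIN lesions of the 2 genotypes, a comparison of the T-3Mb-Erg allele at the same kind of lesion, limma called 0 of 9 factors and 0% of all genes, with 682 genes and 1 factor at an unadjusted p under 0.05 (lower in T-3Mb-Erg HG-PIN for 0 factors and 2.27% of genes). That factor was Elf3, higher in T-3Mb-Erg HG-PIN on 3 of 3 arrays by 1.205 (SE 0.38, 95% interval 0.36 to 2.05, unadjusted p = 0.00901, adjusted p = 0.998). It was the only 1 of 9 whose arrays did not overlap here, a state found with T-3Mb-Erg higher for 4.86% of all genes. Elf3 was positive in 21 of 21 alternatives, from 0.85 to 1.55, and called in none of them.

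The other 8 overlapped. Klf5 stood at 0.65, Grhl2 at 0.39, Esrp1 at 0.25, Foxa1 at 0.18 and Ehf at 0.12, and Ovol1, Esrp2 and Spdef at -0.46, -0.41 and -0.28. The signs of Ehf, Foxa1 and Esrp1 turned when control HG-PIN replicate 2 was left out (-0.32, -0.30 and -0.17). The intervals of these 3 genes reached down to -0.83 and up to 1.21 log2 units, so differences within that span are not excluded. With 3 mice per genotype even the Elf3 difference of 1.205 was not called.

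The arrays also differed within a group in a way shared by several factors. Control HG-PIN replicate 2 was the lowest of its group for Foxa1, Elf3, Ehf, Grhl2, Esrp1, Esrp2 and Klf5, and T-3Mb-Erg HG-PIN replicate 1 the highest of its group for all of these but Esrp2. Averaged over Elf3, Ehf, Foxa1, Grhl2 and Esrp1, a selection made after their values were seen and therefore not tested, the difference from the mean of all arrays was -0.18 on control replicate 2 against 0.96 and 0.75 on replicates 1 and 3. It was 1.49, 0.77 and 0.57 in HG-PIN of T-3Mb-Erg mice and -1.48, -1.35 and -1.53 in tumours. The tumour means of these 5 genes are all below the receptor level, and Elf3 was highest and Grhl2 lowest on tumour replicate 3, so the spread among tumours is not read from this mean. With the 95th percentile of each array as a term in the fit, the changes of Grhl2 and Esrp1 against T-3Mb-Erg HG-PIN were -1.55 and -2.18, against -1.56 and -2.15 without it, and both were called (adjusted p = 0.0282 and 0.0182, limma). Over 22 alternatives Grhl2 was called in 4 and Esrp1 in 6, with adjusted p up to 0.328 and 0.361, and the fixed block gave 0.0753 and 0.0809.

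Other genes of the same circuits were taken from lists that were likewise written with earlier results known. Of 29 junction and surface genes, many of them known targets of these factors, 27 were tested, 26 were lower in tumours than in T-3Mb-Erg HG-PIN, and 6 fell by the test. Those 6 were the tight junction gene Cldn4 (-3.76), the keratin gene Krt8 (-2.88), the adhesion genes Cdh1 (-2.88) and Epcam (-2.55), the membrane protease gene St14 (-1.88) and its inhibitor Spint1 (-1.69), with limma adjusted p from 0.00436 to 0.0436. Against control HG-PIN, Cldn4 (-2.98, adjusted p = 0.0253) and Rab25, a trafficking GTPase (-1.77, adjusted p = 0.0448), fell, and 26 of 27 were again lower. The medians of the list were -1.05 and -0.74 in these comparisons and 0.27 between the HG-PIN groups. Over all genes tested, 51.1% were lower in tumours than in T-3Mb-Erg HG-PIN, and 53.7% lower than in control HG-PIN. The shares called lower were 0.216% and 0.0721%. In tumours 17 of the 27 genes had means below the receptor level, against 4 of 27 in T-3Mb-Erg HG-PIN. Background therefore limits the sizes of these falls too.

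Of 20 further epithelial regulators tested, 15 were lower in tumours than in T-3Mb-Erg HG-PIN with a median of -0.25 and none was called. Elf5 (-1.70, limma adjusted p = 0.362) and Rbm47 (-0.94, adjusted p = 0.428) had the smallest p. Means below the receptor level were found for 14 of 20 in tumours and 10 of 20 in T-3Mb-Erg HG-PIN, so a fall was hard to detect for many. Among 8 tested repressors and drivers of the mesenchymal state, 5 were higher and 1 rose: Prrx1, a homeobox factor of mesenchyme, by 2.87 against T-3Mb-Erg HG-PIN and 3.19 against control HG-PIN (limma adjusted p = 0.00720 and 0.00525). Zeb1 at 0.22 and Snai1 at -0.12 did not pass, and neither did Snai2 at 1.33 (adjusted p = 0.253). Of these 8 genes, 4 had tumour means and 7 had T-3Mb-Erg HG-PIN means below the receptor level.

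Splicing factors other than the Esrp pair gave no call among 15 tested, with a median of 0.05 and 8 higher. Khdrbs3 (0.72, adjusted p = 0.640) and Rbm38 (-0.29, adjusted p = 0.963) had the smallest p. Of 14 genes whose exons Esrp proteins are known to select, 8 were lower and none was called, and Cd44 (-1.30, adjusted p = 0.291) and Fgfr2 (-0.62, adjusted p = 0.742) stood first. These are values per gene, and exon use was not measured here. Of the 14 genes, 8 had tumour means and 6 had T-3Mb-Erg HG-PIN means below the receptor level.

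The captures were checked against markers of epithelium and of neighbouring cells. Of 15 luminal epithelial markers tested, 15 were lower in tumours than in T-3Mb-Erg HG-PIN and 5 were called. Their summed intensity was 1136 to 4008 in control HG-PIN, 2190 to 4420 in T-3Mb-Erg HG-PIN and 404 to 994 in tumours. The 5 were Pigr (-3.94, limma adjusted p = 0.0294) and Cldn4, Krt8, Cdh1 and Epcam, which the junction list also holds. In tumours 9 of the 15 had means below the receptor level, against 2 of 15 in T-3Mb-Erg HG-PIN. The 3 keratin genes of the list were above it, with tumour means of 6.84 for Krt18, 5.71 for Krt19 and 5.06 for Krt8. Of 10 basal markers tested, 8 were lower and Krt15 fell (-2.998, limma adjusted p = 0.0158). Sums over the 11 named basal markers were from 266 to 305 in tumours and from 697 to 795 in T-3Mb-Erg HG-PIN. Control HG-PIN, at 286 to 395, overlapped the tumours and lay below T-3Mb-Erg HG-PIN. Among the 10 tested, 7 of 10 tumour means and 6 of 10 HG-PIN means were below the receptor level.

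Of 17 fibroblast markers tested, 17 were higher in tumours than in T-3Mb-Erg HG-PIN and none was called, with a median of 0.99. The fibroblast sums and mouse means that follow cover all 18 named markers, without the signal filter. The summed intensity was 404 to 433 in control HG-PIN, 489 to 1057 in T-3Mb-Erg HG-PIN and 861 to 5056 in tumours, and no marker was at 0. The mean fibroblast difference of the 3 mice was 0.79, -0.06 and 2.50. In the same order of mice, the mean difference of the luminal markers was -2.24, -2.22 and -1.50, and that of Elf3, Ehf, Foxa1, Grhl2 and Esrp1 was -2.97, -2.12 and -2.10. The part of other cells in the levels of the 9 factors was not tested. Smooth muscle markers had 9 of 11 lower in tumours than in T-3Mb-Erg HG-PIN, whose replicate 1 stood 1.43 above the mean of all arrays. Against control HG-PIN 6 of 11 were higher in tumours (median 0.22). Between the HG-PIN groups 11 of 11 were higher in T-3Mb-Erg mice (median 0.75). Against T-3Mb-Erg HG-PIN, macrophage markers had 7 of 12 lower with Cd14 called (-1.73, limma adjusted p = 0.0409), and endothelial markers had 8 of 10 higher with none called.

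Of 9 lymphocyte markers 7 were lower, of 5 neuroendocrine markers 3 were lower, and of 6 seminal vesicle genes 4 were lower, with none called in these lists. Seminal vesicle sums spanned 509 to 6439 in T-3Mb-Erg HG-PIN and 40.9 to 625 in tumours. Control HG-PIN spanned 77.6 to 2737 and overlapped both. In the mouse of replicate 3 the tumour sum (625) was above that of its HG-PIN (509).

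**Figure D4:**
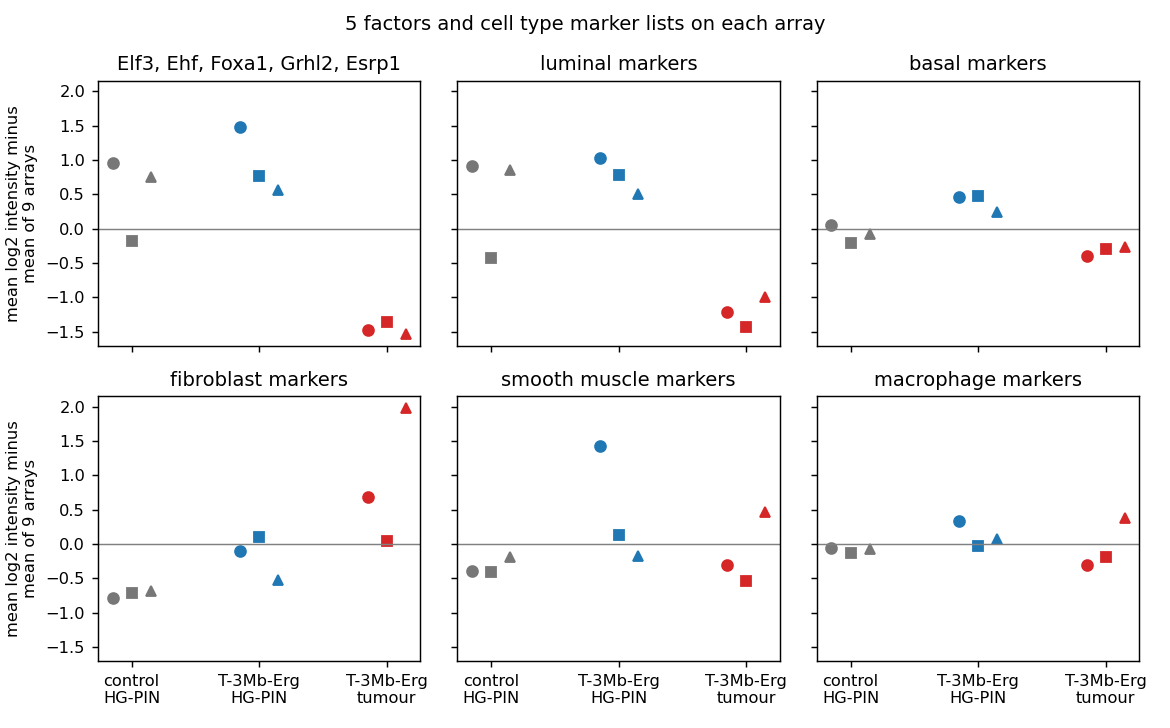
Mean log2 intensity minus the mean of the 9 arrays (vertical axis), for Elf3, Ehf, Foxa1, Grhl2 and Esrp1 together and for 5 marker lists, by group, with replicates 1, 2 and 3 as circle, square and triangle. The 5 factors are between -1.53 and -1.35 in tumours, where the mean of each is below the receptor level, and between -0.18 and 1.49 in HG-PIN.

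The genes whose pattern over 9 arrays was most like the mean of the 9 factors were looked for among 15001 named genes, with the Pearson correlation as a measure of likeness and no test, since tumours and HG-PIN lie apart. They were Pigr, the antibody transporter of mucosal epithelia (0.98), the gasdermin genes Gsdmc2 (0.98) and Gsdmc3 (0.97), Spint1 (0.97) and Myo5c, a myosin of secretory epithelia (0.97). Their log2 means in control HG-PIN, T-3Mb-Erg HG-PIN and tumours were 8.30, 8.77 and 4.83 for Pigr. Gsdmc2 gave 6.72, 7.60 and 2.19, the last below the receptor level. Tumour means of Gsdmc3 (3.68), Spint1 (4.27) and Myo5c (3.90) were below that level as well. The part of this shared background in the likeness was not tested.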

How the data were processed

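Prostate lesions from 6 mice were measured on 9 Affymetrix Mouse Gene 2.0 ST arrays, after NuGEN amplification of RNA from fixed tissue, per the labels' protocols. The authors deposited 41345 probe sets as linear intensity. How the authors corrected background, summarised probes and scaled arrays is not given in the sources used here. Per the labels, no mouse gave more than 1 array to a group, and the number of arrays limits the precision.

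Probe sets were named from the platform annotation with a RefSeq table of GRCm38.p6 (23521 with 1 symbol, 1814 with several, 16010 with none). The brightest per symbol was kept, log2 taken without a pseudocount, and the 25% of genes with the lowest means (below 3.25) left out. The fit of group means over all 9 arrays used limma 3.58.1 under R 4.3.3, with a variance trend and the mouse as a random block. The labels give tumour and HG-PIN the same mice. Deviations of same-mouse arrays correlated at 0.17, 0.10 and -0.30 (consensus -0.01). The random block was therefore close to a fit without a block, which called the same 3 factors and 49 genes. A fixed block, which compares lesions within each mouse, is given beside it. The random-block fit was tested on simulated data drawn without a mouse effect, so that test does not bear on the choice of block. The members, lists and rules were chosen with earlier results of these data known: all 9 members were named, in the 5 lists of regulators and targets the called genes (at most 4 per direction) or else the 2 of smallest p, and the 5 genes most like the members. Junction genes are the exception, with all 6 called ones named, and Zeb1, Snai1, Snai2 and the single genes of the cell type marker lists were named after their values were seen. Alternatives were the block, the arrays, the filter, the trend, a pseudocount of 16, the scaling, array weights, probe sets and single arrays left out.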

Additional observations from a re-analysis of the deposited data

How the results depend on the processing

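Counts are given for the 9 factors and then for all genes. For tumours against T-3Mb-Erg HG-PIN (3 and 47 as reported), the mouse as a fixed replicate block gave 0 and 15, a pseudocount of 16 gave 1 and 18, arrays centred on their median gave 1 and 16, quantile normalization gave 5 and 72, the 95th percentile as a term 5 and 194, and array weights 5 and 405. Without the narrowest array of each group 182 genes were called. For tumours against control HG-PIN (1 and 30), the 2 groups alone gave 0 and 7, the pseudocount 0 and 8, median centring 0 and 10, quantile normalization 2 and 65, the percentile term 4 and 196, array weights 6 and 938, and the fit without the narrowest arrays 4 and 260. The stricter filter, no variance trend and the mean over probe sets each called 2 factors there. Between the HG-PIN groups (0 and 0), the 2 groups alone gave 4 genes, the percentile term 7, array weights 9 and the fit without the narrowest arrays 4, with no factor among them. Leaving out single arrays gave 0 to 4 factors and 0 to 110 genes, then 0 to 4 and 0 to 261, then 0 and 0 to 6. The cause of these differences was not tested.

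Elf3, Foxa1, Ehf, Grhl2 and Esrp1 were lower in tumours in all 22 and 21 alternatives of the tumour comparisons, and Esrp2 too. Signs turned only for changes that were not called. Against T-3Mb-Erg HG-PIN these were Ovol1 (0.062) and Klf5 (0.018) with array weights, and, with single arrays left out, Ovol1 (-0.16 to 0.19) and Spdef (-0.47 to 0.00072). Klf5 against control HG-PIN turned with quantile normalization (-0.036) and the percentile term (-0.071), and ranged from -0.37 to 0.59 with single arrays left out. Between the HG-PIN groups, Ehf, Foxa1 and Esrp1 turned with array weights (-0.21, -0.15 and -0.19), Ehf and Foxa1 without the narrowest arrays (-0.035 and -0.19). With single arrays left out they ranged from -0.32 to 0.47, -0.30 to 0.58 and -0.18 to 0.56. After the narrowest arrays were left out 1 mouse kept both lesions, and that fit had no block. Background limits the low end: tumour means of 7 factors lie below 4.80.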
